A study of Mus musculus with 10 samples.

Results

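The 8 genes described here encode the transcription factors that set hepatocyte fate in the fetal liver: Hnf4a, Foxa1, Foxa2, Foxa3, Cebpa, Cebpb, Onecut1 and Prox1. They were taken by name as a known group of factors, with earlier results of these data known, and were found by their Ensembl identifiers among the 55401 genes of the count table. All 8 passed the filter on low counts, as did 14098 genes in all. The RNA came from livers of female mouse fetuses at E18.5, close to birth, on a C57BL/6J background. In 5 fetuses (Mir483Pat-KO) the microRNA gene Mir483 was deleted on the allele inherited from the father, and 5 WT littermates served as controls. The deletion was made with Cre in embryonic stem cells, so it is present in every cell of the mutant fetuses and not only in the liver, and the maternal allele was left as it was. Whole livers were used, and the polyA RNA of each was sequenced as 1 library.

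Hepatocytes acquire and keep their identity through a small network of DNA-binding factors that switch on one another and, together, the genes for plasma proteins, lipoproteins and metabolic enzymes. FOXA proteins are pioneer factors that open liver enhancers, HNF4A is the nuclear receptor that drives most hepatocyte-specific genes, and C/EBP proteins add metabolic and acute-phase genes as the liver matures. ONECUT1 (also called HNF6) acts early, in the precursors of hepatocytes and bile duct cells, and PROX1 is needed for hepatoblasts to migrate out of the liver bud into the tissue around it. In the fetus these cells share the liver with large numbers of blood cell precursors.

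The deleted gene makes 2 mature microRNAs, which are printed here because a microRNA finds its targets through its seed. Mir483 lies in the imprinted Igf2 gene, whose paternal copy is the active one. The mature sequences are from RefSeq (GRCm38.p6, chromosome 7, minus strand), at chr7:142654932-142654952 for miR-483-3p and chr7:142654968-142654989 for miR-483-5p, and the capitals mark the seed, bases 2 to 8.
miR-483-3p: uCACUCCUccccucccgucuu
miR-483-5p: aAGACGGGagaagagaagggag

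The longest annotated 3′ UTR of each of the 8 genes was searched for the 7 bases complementary to either seed, AGGAGTG for miR-483-3p and CCCGTCT for miR-483-5p. Onecut1 was the only 1 of the 8 with a match, a single AGGAGTG that begins at base 518 of a 3′ UTR of 2183 bases and is not followed by A. It lies in an exon, in the 3′ UTR, at chr9:74890116-74890122 (GRCm38, plus strand), and is shown with 10 bases on each side and the match in capitals.
Onecut1 3′ UTR: gttgcaccatAGGAGTGtgaccaaccc
The miR-483-3p heptamer occurred in the longest 3′ UTR of 2470 of 21123 genes (11.7%) and the miR-483-5p heptamer in 633 (3.0%), so 1 match among 8 genes is close to the share among all genes. Such a match is a string of letters and does not show that the microRNA binds there.

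The promoters of the 8 genes were read for short motifs of the same factor families, since these factors are known to regulate one another. RefSeq promoter windows (GRCm38.p6), which lie mostly before an annotated start and reach a little past it, were present for all 8 genes, 12 windows in all. RefSeq starts are not always those of the GENCODE gene spans given further on, and distances are from the RefSeq start. Both strands were searched, and 3 matches were found, each shown with 9 bases on each side and the motif in capitals. On its own strand, Foxa2 held the ONECUT motif ATTGATT, 213 bases before the start, at chr2:148047167-148047191 (minus strand). The other 2 matches are the reverse complement of the motif. They are an ONECUT motif 60 bases before the upstream RefSeq start of Hnf4a (chr2:163506788-163506812, a stretch that crosses the first base of the GENCODE span) and a forkhead motif (TGTTTAC, the family of the FOXA proteins) 141 bases before the RefSeq start of Foxa1 (chr12:57546237-57546261, minus strand, which lies inside the GENCODE span).
Foxa2, ONECUT: aggcccattATTGATTttttttctc
Hnf4a upstream start, ONECUT: gattagaagAATCAATaagataacc
Foxa1, forkhead: tactgctttGTAAACAaagtgaggg
Among all 32851 windows, 2.86% held the ONECUT motif and 3.65% the forkhead motif. The C/EBP motif TTGCNNAA (10.80% of all windows) and the HNF4 motif CAAAGTCCA (0.47%) had no match in the 12 windows, which says only that these letters are not there.

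Total counts ran from 10831350 to 14765880 per library, with means of 13052142 in WT and 12813201 in Mir483Pat-KO (two-sided exact permutation test, p = 0.817). Mir483 itself had 10 to 22 counts in each WT library and 0 in every Mir483Pat-KO library, against a floor of 3 counts (edgeR adjusted p = 0.00133). These are polyA fragments and not the mature microRNAs. Values below are in CPM, the counts of a gene relative to all counts of its library after TMM scaling, and differences are log2 fold changes of Mir483Pat-KO over WT, with a 95% confidence interval and a p adjusted over all 14098 genes by edgeR's quasi-likelihood test. Replicates are separate fetuses, and the p-values measure the spread between them. In whole liver, fewer cells of a type and less RNA per cell cannot be told apart.

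Foxa2 was the 1 gene of the 8 whose level fell past an adjusted p of 0.05, to 0.71 times that of WT. Hnf4a, Foxa3 and Cebpa stood at 0.849, 0.843 and 0.846 times WT and did not pass the adjusted threshold. Onecut1 was the only 1 with a positive fold change, and Foxa1, Cebpb and Prox1 had fold changes near 0. In all, 7 of the 8 fold changes were negative, with a median of −0.15 (5 of 8 and −0.066 after the removal of trends with GC content and length), whereas 49.1% of all genes had a negative fold change, with a median of 0.0042. Of all genes tested, 5.19% passed an adjusted p of 0.05 (2.76% of all genes as lower and 2.43% as higher in Mir483Pat-KO), beside 1 of 8 here. With a fold change over 1.5 added, 1.23% of all genes passed and 0 of the 8, and 5 of the 8 had an unadjusted p under 0.05 (edgeR), as did 3128 of the 14098 genes.

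**Figure D1:**
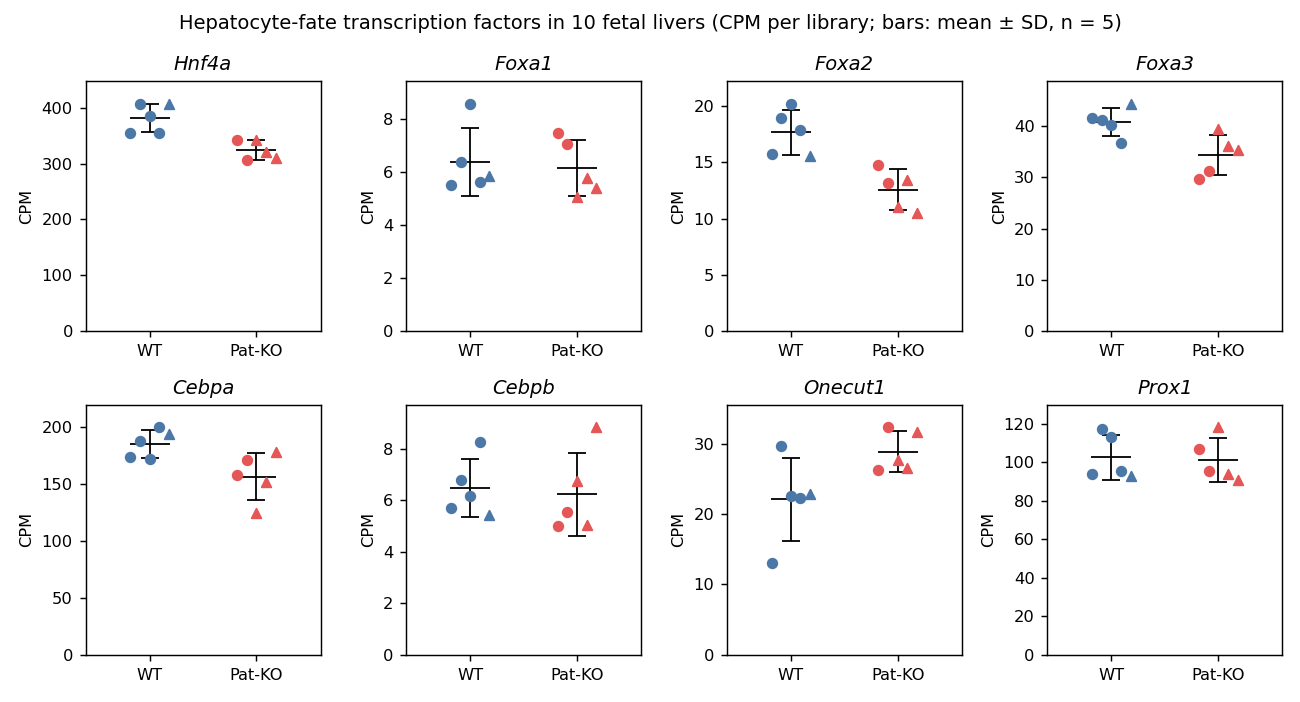
CPM of each of the 8 genes in every library (vertical axes start at 0; blue, WT; red, Mir483Pat-KO; circles and triangles, lower and upper range of identification numbers; black, mean ± SD, n = 5 per group). For Hnf4a and Foxa2 every Mir483Pat-KO library lies below every WT library, and for the other 6 genes the groups overlap.

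Hnf4a (ENSMUSG00000017950) spans chr2:163506808-163572910 on the plus strand. Its CPM was 355, 407, 385, 355 and 406 in WT replicates 1 to 5 and 343, 307, 342, 320 and 310 in Mir483Pat-KO replicates 1 to 5. The lowest WT library was thus above the highest Mir483Pat-KO library, although the gap between them was small. The means were 382 ± 26.0 and 324 ± 17.1 (SD, n = 5 per group), which on the log2 scale is a difference of −0.24 (standard error 0.068, interval −0.38 to −0.092). The edgeR adjusted p was 0.054. The exact permutation test of the same gene gave p = 0.00794, unadjusted, the smallest value that 5 against 5 libraries allow. Groups that do not overlap were found for 2 of the 8 genes and for 6.6% of all genes tested. Hnf4a passed the threshold with DESeq2 (adjusted p = 0.0063), limma-voom (adjusted p = 0.0464) and in 4 further alternatives, and its fold change was negative in all 22. After the removal of trends with GC content and length it was −0.16 (edgeR adjusted p = 0.216).

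The 3 Foxa genes encode closely related forkhead proteins with overlapping roles, Foxa1 and Foxa2 in opening liver chromatin from the earliest stage and Foxa3 mainly in later liver metabolism. Their fold changes were not alike in size. Foxa2 (ENSMUSG00000037025, chr2:148042877-148046969, minus strand) had 15.7, 18.9, 20.2, 17.9 and 15.6 CPM in WT and 14.8, 13.2, 11, 13.4 and 10.5 CPM in Mir483Pat-KO. Every Mir483Pat-KO library was below every WT library. From 17.7 ± 2.01 to 12.6 ± 1.81 CPM (SD, n = 5 per group) the difference on the log2 scale was −0.49 (standard error 0.11, interval −0.73 to −0.26), a fold of 0.71 (0.603 to 0.837). The difference passed in edgeR (adjusted p = 0.0201), and the exact permutation p was 0.00794.

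Foxa2 kept its direction in all 22 alternatives and passed in 19. It no longer passed when the test was against a fold change of 1.5, when only the 6 libraries with identification numbers in the lower range were used (log2 fold change −0.38, edgeR adjusted p = 0.239) or when smooth trends with GC content and length were removed from each library (−0.39, edgeR adjusted p = 0.0829). Libraries differed in how expression tracked GC content (rank correlations of −0.15 to 0.58 among WT and −0.41 to 0.19 among Mir483Pat-KO libraries). In the longest transcript of Foxa2, 57% of the bases are G or C. The part of such trends in the other results was tested only through these offsets.

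Foxa3 (ENSMUSG00000040891, chr7:19013284-19023538, minus strand) had 41.6, 41.1, 40.1, 36.7 and 44.3 CPM in WT and 29.7, 31.3, 39.4, 36.1 and 35.2 CPM in Mir483Pat-KO. Mir483Pat-KO replicate 3 lay within the WT range, and the other 4 mutant libraries were below it. Its log2 fold change was −0.25 (standard error 0.084, interval −0.43 to −0.069, edgeR adjusted p = 0.0966). Foxa1 (ENSMUSG00000035451, chr12:57540628-57546916, minus strand) had 5.51, 6.37, 8.58, 5.62 and 5.85 CPM in WT and 7.49, 7.06, 5.06, 5.77 and 5.4 CPM in Mir483Pat-KO, and the groups overlapped over most of their range. Its log2 fold change was −0.059 (interval −0.39 to 0.27, edgeR adjusted p = 0.865), which does not reach the −0.49 of Foxa2. The difference between the Foxa1 and Foxa2 fold changes itself was not tested.

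Cebpa encodes C/EBPα, which restrains proliferation and drives metabolic genes in hepatocytes, and Cebpb encodes C/EBPβ, which is better known from the acute-phase response and regeneration. Cebpa (ENSMUSG00000034957, chr7:35119293-35121928, plus strand) had 174, 188, 172, 200 and 194 CPM in WT and 158, 171, 125, 152 and 178 CPM in Mir483Pat-KO. Here 4 Mir483Pat-KO libraries were below all of WT and replicate 5 was not, and replicate 3 was the lowest by a wide margin. Its log2 fold change was −0.24 (standard error 0.087, interval −0.43 to −0.056, edgeR adjusted p = 0.116). After the removal of trends with GC content and length it was −0.077 (edgeR adjusted p = 0.663), and 62.6% of the bases of the longest Cebpa transcript are G or C.

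Cebpb (ENSMUSG00000056501, chr2:167688915-167690418, plus strand) had 5.68, 6.79, 6.15, 8.24 and 5.43 CPM in WT and 5.00, 5.55, 6.74, 5.05 and 8.82 CPM in Mir483Pat-KO. Both the highest and the lowest library of the 10 were Mir483Pat-KO. Its log2 fold change was −0.040 (interval −0.40 to 0.32, edgeR adjusted p = 0.920). Exons of Tmem189 on the opposite strand cover 20.7% of the exonic bases of Cebpb. The libraries were stranded, but the strand setting of the counting is not given in the sources used here, so how far reads of the neighbour enter this value is unknown.

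Onecut1 (ENSMUSG00000043013, chr9:74861921-74891781, plus strand) had 13.1, 29.7, 22.6, 22.3 and 22.8 CPM in WT and 26.2, 32.3, 27.7, 26.5 and 31.6 CPM in Mir483Pat-KO. WT replicate 1 was far below the other WT libraries and WT replicate 2 lay among the Mir483Pat-KO libraries, of which 2 exceeded all of WT. The means were 22.1 ± 5.90 and 28.8 ± 2.89 (SD, n = 5 per group), which on the log2 scale is a difference of 0.38 (standard error 0.15, interval 0.070 to 0.69). It did not pass in edgeR (adjusted p = 0.139), and the size of the fold change rested on single WT libraries, at 0.24 without WT replicate 1 (edgeR adjusted p = 0.190) and 0.50 without WT replicate 2 (edgeR adjusted p = 0.0419).

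In 3 alternatives that kept all 10 libraries Onecut1 also passed, namely without a filter on low counts, with the replicate number as a block (adjusted p = 0.0296) and after scaling on hepatocyte markers (adjusted p = 0.0494), all in edgeR. More genes of all passed there too, at 1258 (of 28428 tested), 1338 and 1378, against 731 as reported. Marker scaling also moved the median of all genes to 0.11. Onecut1 is also the gene with the miR-483-3p heptamer shown above. Exons of Gm20649, a long noncoding RNA gene on the same strand, cover 52.8% of its exonic bases, the heptamer included. Gm20649 had 0 counts in all 10 libraries, and the rule for reads in shared exons is not given, so the Onecut1 value may rest on the rest of the gene.

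Prox1 (ENSMUSG00000010175, chr1:190118035-190170714, minus strand) had 94.0, 117, 113, 95.4 and 92.9 CPM in WT and 107, 95.2, 118, 94.0 and 90.7 CPM in Mir483Pat-KO. The ranges of the groups were nearly the same. Its log2 fold change was −0.021 (interval −0.21 to 0.17, edgeR adjusted p = 0.917).

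**Figure D2:**
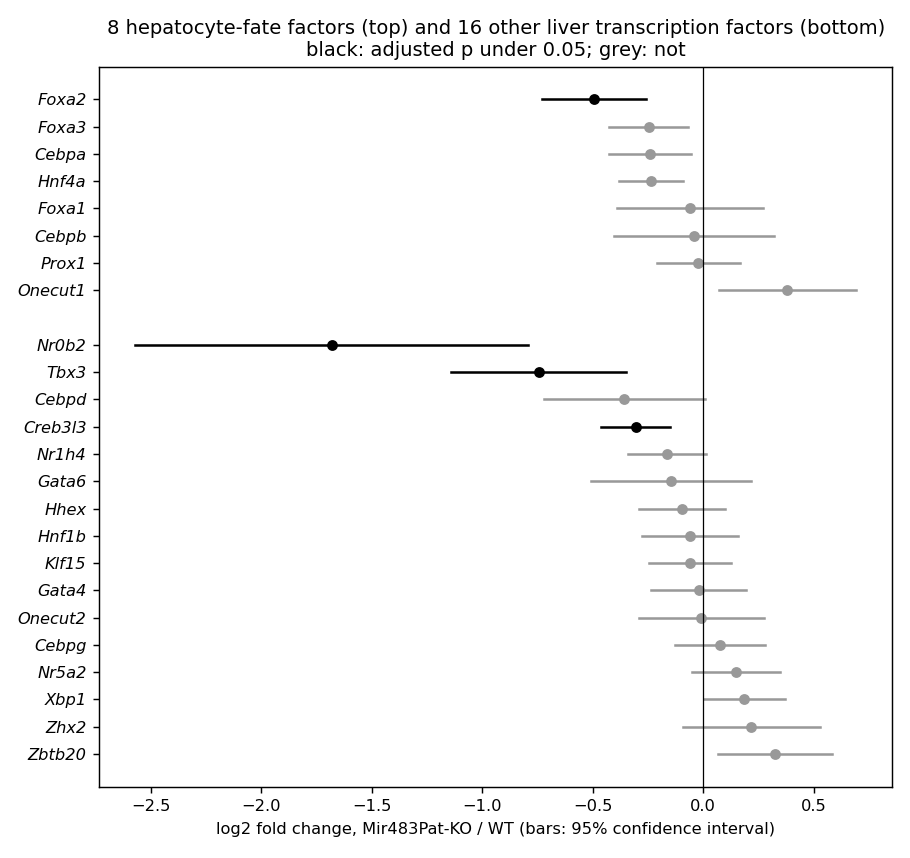
Log2 fold change of Mir483Pat-KO over WT (horizontal axis) with its 95% confidence interval for the 8 hepatocyte-fate factors (top) and 16 of the 17 other liver transcription factors (bottom), each block in order of size, black where the edgeR adjusted p was under 0.05. Foxa2 is black in the upper block, and Nr0b2, Tbx3 and Creb3l3 in the lower.

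The labels carry identification numbers in a lower range (4 WT and 2 Mir483Pat-KO libraries) and an upper range (1 WT and 3 Mir483Pat-KO), and whether a range marks a litter is not stated. Within the lower and the upper range, the log2 ratio of mean CPM was −0.38 and −0.43 for Foxa2, −0.21 and −0.33 for Hnf4a, −0.39 and −0.26 for Foxa3, −0.16 and −0.35 for Cebpa and 0.41 and 0.33 for Onecut1. The direction was thus the same within both ranges for these 5 genes. For Foxa1 (0.16 and −0.11), Cebpb (−0.35 and 0.34) and Prox1 (−0.053 and 0.12) it was not, and the upper range holds a single WT library, so that its values have no test of their own. With the range as a covariate, Foxa3 passed in edgeR (log2 fold change −0.34, adjusted p = 0.0152).

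Compared with each other per kilobase of exon, the 8 genes spanned a wide range of levels. In WT the order was Hnf4a at 79.1 ± 5.39 CPM per kilobase (SD, n = 5), Cebpa at 70.4 ± 4.66, Foxa3 at 20.0 ± 1.34, Prox1 at 12.2 ± 1.37, Foxa2 at 7.47 ± 0.849, Onecut1 at 5.38 ± 1.44, Cebpb at 4.29 ± 0.747 and Foxa1 at 1.92 ± 0.382. Among the Foxa genes, the late-acting Foxa3 was thus the most abundant transcript and Foxa1 the least. The WT libraries of neighbours in this order did not overlap, except between Hnf4a and Cebpa, Foxa2 and Onecut1, and Onecut1 and Cebpb. In Mir483Pat-KO the order was the same but for Foxa2 (5.32) and Onecut1 (7.01), which had changed places. With the length of the longest transcript in place of all exonic bases the order was the same in both groups, and Hnf4a and Cebpa no longer overlapped in WT.

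**Figure D3:**
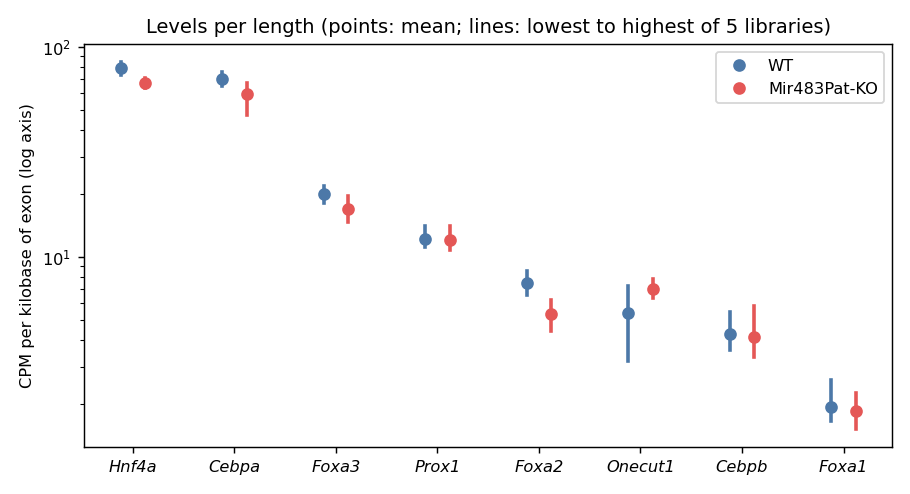
CPM per kilobase of exon of the 8 genes on a log axis (points, mean; lines, lowest to highest of 5 libraries; blue, WT; red, Mir483Pat-KO), in the order of WT. Foxa2 lies above Onecut1 in WT (7.47 and 5.38) and below it in Mir483Pat-KO (5.32 and 7.01).

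After the group means were subtracted, so that the genotype difference played no part, the pair of these genes that varied most alike across the 10 libraries was Foxa1 and Foxa2, with a Pearson correlation of 0.82 of log2 CPM. WT replicate 3 was the highest WT library for both. Hnf4a and Prox1 followed at 0.66, and the most opposed pairs were Foxa2 with Foxa3 at −0.65 and Cebpa with Prox1 at −0.64. These are descriptions over 10 libraries whose points share depth and base composition. Among 12550 genes searched in the same way, those most like each factor were Mx2 (0.94) for Hnf4a, Shld2 (0.95) for Foxa1, Aoc2 (0.95) for Foxa2, Kdm3b (0.96) for Foxa3, Syvn1 (0.96) for Cebpa, Faap20 (0.91) for Cebpb, Foxq1 (0.98) for Onecut1 and Slc7a2 (0.96) for Prox1. The next in each search were Ctps2, Piezo2, Bmp5, Mtif3, Mogs, Mb21d2, Mtss1 and Zfp945, at 0.91 to 0.96. All are top values picked from 12550 over only 10 libraries. How high such top values run by chance was not tested.

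Foxq1, another forkhead gene, stood closest to any of the 8. It had 19.3, 42.6, 31.0, 31.0 and 29.5 CPM in WT and 34.0, 39.7, 33.2, 33.0 and 35.8 CPM in Mir483Pat-KO. As for Onecut1, WT replicate 1 was the lowest of the 10 libraries. Its log2 fold change was 0.20 (standard error 0.14, edgeR adjusted p = 0.446). Aoc2, the gene most like Foxa2, fell from 16.9 ± 3.11 to 11.5 ± 1.92 CPM (log2 fold change −0.56, edgeR adjusted p = 0.0277), the only one of these 16 genes that passed. Bmp5, the next most like Foxa2, had a log2 fold change of 0.17, which is of the other sign (edgeR adjusted p = 0.485).

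The factors that work beside these 8 in the liver were given by a list of 17, all tested. Of them 12 had a lower and 5 a higher mean in Mir483Pat-KO, with a median log2 fold change of −0.059, and 3 passed, all lower. Creb3l3, a membrane-bound factor that controls genes of triglyceride handling, fell from 130 ± 5.72 to 105 ± 10.5 CPM (log2 fold change −0.31, edgeR adjusted p = 0.0272), with the groups apart. Tbx3, which promotes hepatoblast growth, fell from 6.67 ± 1.69 to 3.97 ± 0.878 CPM (−0.74, edgeR adjusted p = 0.0310), also with the groups apart. Nr0b2 (SHP), a corepressor in bile acid control, fell from 1.82 ± 0.998 to 0.560 ± 0.245 CPM (−1.68, edgeR adjusted p = 0.0310), and 3 of its Mir483Pat-KO libraries were below all of WT. Without Mir483Pat-KO replicate 2 or without replicate 4 none of the 17 passed in edgeR, and without WT replicate 5 or Mir483Pat-KO replicate 3 only 1 did. Tbx3 passed in 16 and Creb3l3 in 15 of 22 alternatives, and Nr0b2 in 9 of the 21 in which it was tested. With libraries scaled on hepatocyte markers the median of the 17 was 0.051, against 0.11 for all genes, and Creb3l3 did not pass (edgeR adjusted p = 0.153). There 2 passed as lower and 2 as higher, the latter Xbp1 and Zbtb20 (edgeR adjusted p = 0.0484 and 0.0393), and without WT replicate 2 the counts were 3 lower and 2 higher.

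Relatives of the 8 genes on that list were spread over this range. Onecut2, the nearest relative of Onecut1, had a log2 fold change of −0.0086, and Cebpd and Cebpg, of the C/EBP family, had −0.36 and 0.078. None of these 3 passed in edgeR, and Gata4, a partner of the FOXA proteins at liver enhancers, had −0.020. These were named for their family and not by rank.

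Genes known to be switched on by HNF4A, the FOXA proteins, C/EBPα, C/EBPβ and ONECUT1 were given in 5 lists (none was made for PROX1), written with earlier results of these data known, so their direction is not independent evidence. Of 20 HNF4A targets, 16 had a lower mean in Mir483Pat-KO and 5 passed, all lower, with a median log2 fold change of −0.17. The 5 are genes of lipid transport. Apoc3, an inhibitor of triglyceride clearance, fell from 55.9 ± 5.33 to 19.4 ± 4.68 CPM (−1.53, edgeR adjusted p = 1.83e-05), Apoa4 from 6.72 ± 1.6 to 2.71 ± 0.799 CPM (−1.31, edgeR adjusted p = 0.00385) and Apoa1, the main protein of high-density lipoprotein, from 8040 ± 603 to 6540 ± 220 CPM (−0.30, edgeR adjusted p = 0.0262). Fabp1, a fatty acid carrier (−0.40), and Mttp, which loads lipid onto apolipoprotein B (−0.29), were the other two. Leaving out 1 library gave 2 to 6 that passed, with 2 without WT replicate 5, Mir483Pat-KO replicate 4 or Mir483Pat-KO replicate 5, and 3 without WT replicate 1 or 4 or Mir483Pat-KO replicate 2 or 3. Apoc3 passed in all 22 alternatives, Apoa4 in 20, Apoa1 in 14, Fabp1 in 12 and Mttp in 10. Other HNF4A targets, such as Apob at −0.055 and Otc at −0.14, did not pass.

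Of 10 FOXA targets, 6 had a lower mean and 1 passed, with a median of −0.14. It was Cps1, the first enzyme of the urea cycle, which fell from 2480 ± 361 to 1580 ± 218 CPM (−0.65, edgeR adjusted p = 0.00407). Alb, the albumin gene, had −0.18 (edgeR adjusted p = 0.190) and Slc2a2, a glucose transporter, −0.30 (edgeR adjusted p = 0.117). Of 11 CEBPA targets, which share Cps1 and 4 others with that list, 7 had a lower mean and 3 passed, all lower, with a median of −0.21. Besides Cps1 these were Ugt1a1, the bilirubin-conjugating enzyme, at −1.55 (edgeR adjusted p = 0.00384; its exons are shared with other Ugt1a genes), and Ass1, also of the urea cycle, at −0.31 (edgeR adjusted p = 0.0227). Cps1 and Ugt1a1 passed in 20 of 22 alternatives and Ass1 in 18, and without Mir483Pat-KO replicate 2 only 2 CEBPA targets passed. With DESeq2 5 CEBPA targets passed, all lower. With the identification number range as a covariate 4 passed as lower and 1 as higher. Without a filter on low counts, 3 CEBPA and 2 FOXA targets passed as lower and 1 of each list as higher. With the GC content and length offsets 2 FOXA targets passed, both lower.

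Of 10 acute-phase genes that C/EBPβ is known for, 7 were tested, and Saa1, Saa2 and Orm2 were too low. Of the 7, 6 had a lower mean, with a median of −0.18, and Hp, which binds free haemoglobin, passed (1410 ± 273 to 1010 ± 117 CPM, −0.47, edgeR adjusted p = 0.0377). Hp passed in 10 of 22 alternatives. None of the 7 genes passed in edgeR without WT replicate 1, 3, 4 or 5, or without Mir483Pat-KO replicate 2, 3 or 4, each left out alone. Lbp and Itih4 had −0.23 and −0.20 (edgeR adjusted p = 0.0504 and 0.127).

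Of 8 ONECUT1 targets, 6 had a lower mean and none passed in edgeR, with a median of −0.17, although Onecut1 itself had a positive fold change. Those with the smallest p were Pfkfb1, of glycolysis control (−0.26, edgeR adjusted p = 0.0905), Slc2a2 and Cyp8b1, of bile acid synthesis (−0.38, edgeR adjusted p = 0.135). At an unadjusted p under 0.05 these 3 counted. With DESeq2 1 passed, with the identification number range as a covariate 1, without a filter on low counts 2, without WT replicate 2, Mir483Pat-KO replicate 1 or Mir483Pat-KO replicate 3 also 1, and after removal of GC content and length trends 3 did, all lower. After scaling on hepatocyte markers the medians of the 5 target lists lay between −0.10 and −0.031, against 0.11 for all genes. Before that scaling they lay between −0.21 and −0.14, against 0.0042 for all genes. The lists share genes with the scaling markers, so the scaled medians are not independent of the scaling. The targets still passing were 2 HNF4A, 1 FOXA and 2 CEBPA targets.

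**Figure D4:**
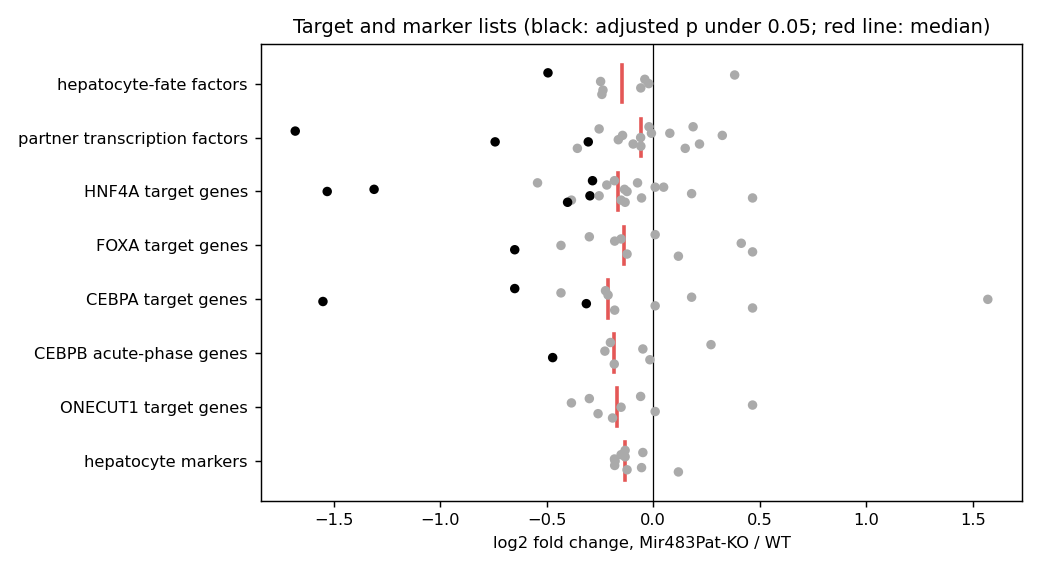
Log2 fold change of Mir483Pat-KO over WT (horizontal axis) of the tested genes of each list, 1 point a gene, black where the edgeR adjusted p was under 0.05, with the median as a red line. All 8 medians lie below 0, between −0.21 for CEBPA targets and −0.059 for other liver transcription factors (0.051 with scaling on hepatocyte markers, where the median of all genes is 0.11), and every black point lies below 0.

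Markers of the cell types in the liver were compared beside these results. Of 10 hepatocyte markers 9 had a lower mean in Mir483Pat-KO and none passed in edgeR (3 had an unadjusted p under 0.05, namely Serpinc1, Apoa2 and Alb, and 1 passed with DESeq2), with a median of −0.13. Their summed level was 245000 to 271000 CPM in WT and 228000 to 259000 CPM in Mir483Pat-KO, so hepatocyte transcripts were abundant in every library. The 3 Mir483Pat-KO libraries of the upper identification number range held 228000 to 229000 CPM, below all of WT, and the 2 of the lower range held 259000 and 248000 CPM, within the WT range. When libraries were scaled on these 10 markers, a setting chosen after the values were seen, the log2 fold change was −0.39 for Foxa2 (edgeR adjusted p = 0.0368), −0.13 for Hnf4a, −0.13 for Foxa3, −0.14 for Cebpa and 0.49 for Onecut1. This scaling moves every gene up by about the same amount, to a median of 0.11 for all genes. Foxa2 passed relative to hepatocyte markers as well, and Hnf4a, Foxa3 and Cebpa stayed negative without passing (edgeR adjusted p = 0.272, 0.406 and 0.338).

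Of 10 erythroid markers 8 had a higher mean in Mir483Pat-KO and 2 passed, among them the globin gene Hbb-bs (0.54, edgeR adjusted p = 0.0120), with a median of 0.16 and a summed level of 14200 to 17900 CPM in WT and 16500 to 23100 CPM in Mir483Pat-KO. The 3 Mir483Pat-KO libraries of the upper identification number range held 21400 to 23100 CPM, above all of WT, and the 2 of the lower range held 16500 and 17700 CPM, within the WT range. WT replicate 5, in the upper range, held 14200 CPM. In the lower range alone the median was 0.034 and none passed in edgeR, where only 23 of all genes did. With the range as a covariate the median was 0.14, and 2 passed in edgeR, both higher. Of 8 macrophage markers 3 had a lower and 5 a higher mean, with a median of 0.087, and 2 passed, C1qa (−0.29) and Clec4f (−0.46), both lower. None of the 8 passed without WT replicate 4 or 5, or without Mir483Pat-KO replicate 2, 4 or 5, each left out alone. They had a sum of 613 to 768 CPM in WT and 573 to 743 CPM in Mir483Pat-KO. The part of erythroid and macrophage markers in the values of the 8 factors was not tested.

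None of the tested markers of bile duct (7 of 8 tested), granulocytes (10), endothelium (8) or stellate cells (8) passed in edgeR with all 10 libraries and the settings given above, with medians of −0.00073, −0.031, −0.15 and −0.39. At an unadjusted p under 0.05 there were none for bile duct, 1 for granulocytes, 2 for endothelium and 4 for stellate cells. In other settings up to 4 stellate markers passed, all lower, with 2 in DESeq2, 3 in edgeR without WT replicate 1, 2 without Mir483Pat-KO replicate 1, 1 without WT replicate 2 and 4 without a filter on low counts. Of endothelial markers 1 passed as lower with the replicate block and without WT replicate 2, and of granulocyte markers 1 passed as higher without the filter and without WT replicate 1. The summed levels were 57.5 to 117 and 75.3 to 109 CPM for bile duct, 2550 to 3840 and 3240 to 3740 CPM for granulocytes, 449 to 510 and 389 to 478 CPM for endothelium, in WT and Mir483Pat-KO, and those of stellate cells reached at most 957 and 718 CPM. Bile duct cells also express Foxa1, Foxa2 and Onecut1, and their 8 markers together reached at most 117 CPM.

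Pancreas and gut cells also express Hnf4a, Foxa2 and Onecut1. Of their 9 markers, Pnlip and Cdx2 were at 0 in all libraries and 4 were high enough to be tested, with a sum of 2.93 to 51.9 CPM in WT and 3.2 to 11 CPM in Mir483Pat-KO. The highest value was that of WT replicate 3, of which 35.3 CPM came from the pancreatic enzyme gene Ctrb1. Without WT replicate 3, the log2 fold change was −0.45 for Foxa2 (edgeR adjusted p = 0.0465) and 0.38 for Onecut1 (edgeR adjusted p = 0.206).

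Over all alternatives, the 8 genes fell into those whose direction held and those whose direction did not. Hnf4a, Foxa2, Foxa3 and Cebpa were lower in all 22 and Onecut1 higher in all 22, and Foxa1, Cebpb and Prox1 were each lower in 17. Foxa2 passed in 19, Hnf4a in 6, Onecut1 in 4, Foxa3 and Cebpa in 1 each, and the remaining 3 genes in none.

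**Figure D5:**
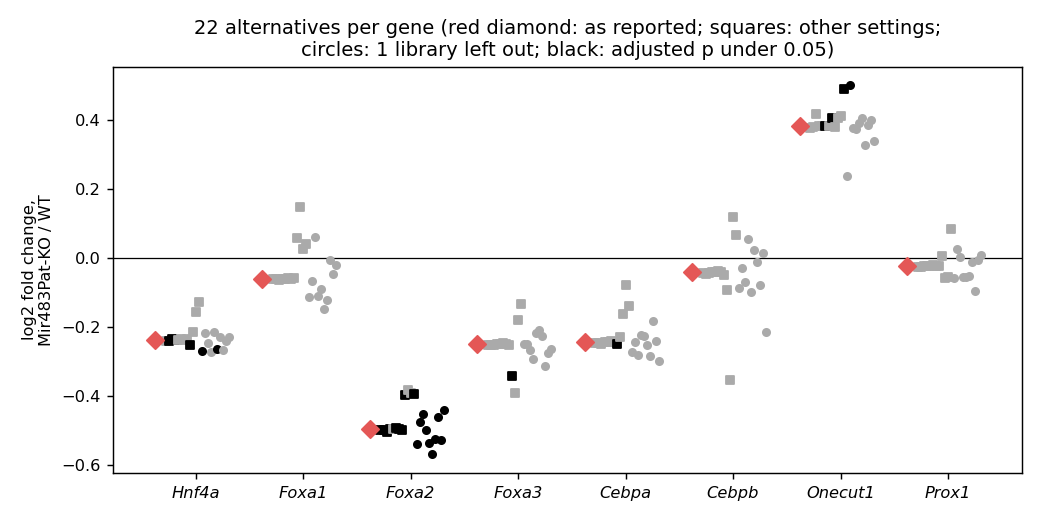
Log2 fold change of Mir483Pat-KO over WT (vertical axis) of each gene as reported (red diamond), under 12 other settings (squares) and with 1 library left out (10 circles), black where the adjusted p was under 0.05. Foxa2 stays between −0.57 and −0.38, Onecut1 between 0.24 and 0.50, and Foxa1, Cebpb and Prox1 lie on both sides of 0.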

How the data were processed

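Liver RNA of 5 WT and 5 Mir483Pat-KO female fetuses was analysed. The authors made stranded polyA libraries, aligned paired-end reads to GRCm38 with STAR and deposited raw counts per Ensembl gene. The counting strand and the rule for shared reads are not given in the sources used here. Groups came from the labels. The 8 genes and all gene lists were chosen with earlier results of these data known. Genes were named by 3 rules: the 8 genes and Mir483, up to 3 genes of a list with the smallest p, and the 2 genes most like each factor, and others were named after their values were seen. Counts were tested in R 4.3.3 with edgeR 4.0.16 (filterByExpr, TMM, quasi-likelihood F-test, no covariates), with Benjamini-Hochberg adjustment over 14098 genes. Lists were described by counts and medians. Annotation was GENCODE M21, and 55141 of 55401 identifiers matched a symbol. Sequences were from RefSeq. The procedure was tested on simulated data. Confidence intervals of fold changes came from the edgeR quasi-likelihood fit, and include the spread between fetuses as well as counting error. Within groups every pair of libraries differed by more than sampling noise (20 pairs, lowest chi-square per degree of freedom 4.85). Alternatives used DESeq2 1.42.0, limma 3.58.1, RLE scaling, other filters, a replicate block, the identification number range, GC content and length offsets, and each library left out. Figures were drawn with matplotlib 3.10.9. Results that rest on items withheld for evaluation are not reported here.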

Additional observations from a re-analysis of the deposited data

Results flagged for a closer look

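In 4 of 48 groups of 5 libraries checked (each of the 8 genes, the total counts, and the summed CPM of the 8 genes and of each other list, in WT and in Mir483Pat-KO) the highest library stood apart from the nearest other by more than 0.71 of the range of its group (Dixon's 95% critical value), which chance alone would do in about 1 in 20 groups. Foxa1 had 8.58 CPM in WT replicate 3, against 6.37 in the next library, a gap of 0.72 of the range, and without that library its log2 fold change was 0.063 (edgeR adjusted p = 0.851). The summed pancreas and gut markers had 51.9 CPM in the same library, against 16.3 in the next (0.727 of the range). The summed acute-phase genes had 16000 CPM in WT replicate 5, against 14700 (0.766 of the range). The summed bile duct markers had 109 CPM in Mir483Pat-KO replicate 2, against 81.6 (0.815 of the range), and without that library the log2 fold change of Onecut1 was 0.33 (edgeR adjusted p = 0.277). The cause of these values was not tested.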

How the results depend on the processing

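Of the 8 genes, 1 passed, and of all genes 731 passed an adjusted p of 0.05 and 173 also a fold change of 1.5. Those counts were 2 genes of the 8 and 1167 of all with DESeq2, 2 and 753 with limma-voom and 2 and 765 with the robust quasi-likelihood fit. They were 0, 4 and 4 with glmTreat, and 2, 1258 and 321 without a filter on low counts. With the identification number range as a covariate they were 3 and 1189, and in the lower range alone 0, 23 and 21. With the GC content and length offsets they were 0 and 664. With scaling on hepatocyte markers, which moved the median of all genes to 0.11, they were 2 and 1378. Leaving out 1 library gave 1 to 2 of the 8, 279 to 863 genes and 97 to 233 genes, the lowest of both without Mir483Pat-KO replicate 4.

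Hnf4a was −0.238 with DESeq2, −0.235 with limma-voom, −0.236 with the robust fit and −0.252 with the range covariate, and passed in each. Foxa2 did not pass with glmTreat (−0.494), in the lower range (−0.38) or with the offsets (−0.391). Onecut1 passed without the filter (0.384) and with marker scaling (0.49), and Foxa3 with the range covariate (−0.34). Foxa1 turned positive with the range covariate (0.0584), in the lower range (0.15), with the offsets (0.0262) and with marker scaling (0.0424), Cebpb with the offsets (0.121) and marker scaling (0.069), and Prox1 with the range covariate (0.00818) and marker scaling (0.0863). With 1 library left out, Hnf4a ran from −0.27 to −0.212, Onecut1 from 0.24 to 0.502, Foxa2 from −0.568 to −0.438, Foxa1 from −0.147 to 0.0628, Cebpb from −0.213 to 0.0555 and Prox1 from −0.0932 to 0.0273. The level per kilobase of the longest transcript was 87.5 for Hnf4a and 8.32 for Foxa2 in WT. The causes were not tested.

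With the replicate number as a block (replicate block), 3 of the 8 genes and 1338 of all passed, and Cebpa (−0.248) and Onecut1 (0.408) were among them. Same-numbered libraries deviated together only weakly (mean correlation 0.0871, over 0.1 in 2 of 5 pairs), so the numbers were not taken to pair the samples.

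Foxa1 and Cebpb had the fewest counts of the 8 genes and the widest confidence intervals, and what set the widths was not tested.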
